A study of Mus musculus with 8 samples.

Results

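The angiopoietin-TIE axis was described through 5 genes, Tek, Tie1, Angpt1, Angpt2 and Ptprb, which were picked by symbol out of 33641 listed in each expression table. All 5 were present in every library and all 5 passed the filter on low values. The measurement was RNA-seq of total RNA from CD45-CD31+ cells, that is, cells without the leukocyte antigen and with the endothelial one, sorted by FACS from Lewis lung carcinoma tumors on day 21 after injection of the carcinoma cells into the left lobe of the lung. Values are TPM, transcript abundances corrected for transcript length and scaled so that every library sums to 1000000, so that levels can be compared between genes but the sequencing depth is unknown.

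There were 4 libraries from control mice, named C1 to C4 here, and 4 from endFoxf1+/- mice, named H1 to H4, and the numbers are names that pair nothing. The endFoxf1+/- mice were Pdgfb-iCreER; Foxf1 fl/+ on a C57Bl/6 background, in which tamoxifen, given to both groups, deletes exon 1 of one Foxf1 allele wherever the Pdgfb promoter drives the Cre. The study describes the controls in one place as single transgenic littermates with either the floxed allele or the Cre, and in another as C57Bl/6 wild-type mice, and the labels say only control. All mice were young adults that carried tumors, and no tumor-free lung was among the samples. Nothing in the labels says that each library came from a separate mouse, so the p-values below measure the spread between these libraries, which may in part be technical. A plot of these data in the study gives a smaller number per group than the labels list, and which libraries it used is not stated.

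The angiopoietins are secreted ligands of TEK, also called TIE2, a receptor tyrosine kinase of blood and lymphatic endothelium. ANGPT1 comes mainly from pericytes, smooth muscle cells, megakaryocytes and platelets, activates TIE2 across cell contacts and keeps vessels tight and quiescent through AKT and exclusion of FOXO1 from the nucleus. ANGPT2 is made by endothelial cells themselves, is stored in Weibel-Palade bodies, and in activated or tumor vessels acts as a weak or antagonistic ligand that loosens vessels. TIE1 is an orphan receptor of the same family that pairs with TIE2, and PTPRB, also called VE-PTP, is an endothelial phosphatase that removes phosphate from TIE2 and associates with VE-cadherin.

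The 5 genes lie on 4 mouse chromosomes of GRCm38, with positions from GENCODE vM21. Tek (ENSMUSG00000006386.15) lies on the plus strand at chr4:94739289-94874976. Tie1 (ENSMUSG00000033191.14) lies on the minus strand of the same chromosome at chr4:118471191-118490061. Angpt1 (ENSMUSG00000022309.9) lies on the minus strand at chr15:42424723-42676977 and Angpt2 (ENSMUSG00000031465.6) on the minus strand at chr8:18690263-18741562. Ptprb (ENSMUSG00000020154.10) lies on the plus strand at chr10:116275523-116389535. Angpt2 lies inside the span of Mcph1 on the opposite strand, but the annotated exons of the pair share 0 bases. Of the 5205 exonic bases of Angpt1, 737 are shared with exons of the antisense gene Gm17473, and since the counting is not stated to use strand, reads from that stretch cannot be told apart.

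The RefSeq promoter table of GRCm38.p6 held a window for 2 of the 5 genes, Tek and Tie1. The Tek promoter is shown because Tek was the receptor that moved least evenly with the endothelial content described below. The run covers the 250 bases before the annotated start, chr4:94739039-94739288 on the plus strand, and the capitals mark each match to GGAA, the core of ETS factor sites, here read on the reverse strand as TTCC.
Tek: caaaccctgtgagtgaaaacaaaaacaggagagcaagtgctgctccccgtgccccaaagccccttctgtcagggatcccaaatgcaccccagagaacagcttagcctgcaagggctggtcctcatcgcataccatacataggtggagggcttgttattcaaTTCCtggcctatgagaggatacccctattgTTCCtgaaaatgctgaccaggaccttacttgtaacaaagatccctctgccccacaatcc
This window held 2 GGAA matches, at 89 and 59 bases before the start, and the Tie1 window held 7. Of 32851 RefSeq windows of this length, 93.5% held at least 1 GGAA on either strand, with a median of 3, 76.8% held at least as many as Tek and 3.82% at least as many as Tie1. The longer ETS letters AGGAAG, which contain GGAA, were found in the Tie1 window alone of the pair, against 29.5% of all windows. Neither window held the forkhead core TAAACA on either strand, which 12.03% of all windows held, nor AGATAA, the letters of a GATA site, which 9.99% held. A match of letters is a description of the window and not a binding site.

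Foxf1, the targeted gene, was at 213, 285, 296 and 331 TPM in C1 to C4 and at 177, 203, 14.04 and 105 TPM in H1 to H4. It was lower in each endFoxf1+/- library than in each control library (log2 difference -1.68, exact two-sided permutation p = 0.0286, the smallest that 4 against 4 allows), and -0.83 without H3 (exact p = 0.0571, the smallest that 3 against 4 allows). Relative to the endothelial markers described below, Foxf1 stood at 43.6%, 60.3%, 72.2% and 64.99% in C1 to C4 and at 35.1%, 39.8%, 50.7% and 39.4% in H1 to H4. There H3 lay above C1, and the log2 difference was -0.52 (exact permutation p = 0.0571), or -0.64 without H3 with non-overlapping groups (exact p = 0.0571). The value covers the whole gene, of which the deletion removes exon 1.

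A pair of the endFoxf1+/- libraries stood apart from the rest. The endothelial marker level was taken as the geometric mean of TPM + 1 over 20 marker genes, none of them one of the 5, minus 1. It was 87.2% to 108% of the control mean in C1 to C4, H1 and H2, but 56.7% in H4 and 5.89% in H3. Across all genes the median correlation with the other libraries was 0.795 for H3 and 0.892 for H4, against 0.958 to 0.968 for the others. Fibroblast markers summed to 1313 TPM in H3 and 293 TPM in H4, against 34.9 to 93.3 TPM in the controls. H1 and H2, at 167 and 107 TPM, also lay above every control. Haematopoietic markers summed to 7742 TPM in H3 and 4608 TPM in H4, most of it Lyz2 in both (6870 and 4476 TPM). They summed to 2508 TPM in H1, 1732 TPM in H2 and 1437 to 5042 TPM in the controls. Ptprc, the gene of the CD45 antigen that the sort should exclude, was at 91.2 TPM in H3 and 16.5 TPM in H1. It was at 9.93 TPM in H2 and 6.61 TPM in H4, against 2.94 to 9.13 TPM in the controls. Of the 6 fibroblast markers tested, Col3a1, Dcn, Lum and Pdgfra had an unadjusted p under 0.05 in the higher direction on both scales, and of the 9 haematopoietic ones Cd68 and Mrc1 did, with Csf1r on the relative scale alone. Over all tested genes 2.82% did on log2(TPM + 1), and 311 of 14964 did on the relative scale. Adgre1, Cd68, Csf1r and Mrc1 had non-overlapping groups in the higher direction on the relative scale, as 8.25% of all tested genes did. Epithelial markers spread from 1484 TPM in H3 to 28816 TPM in C3. In a bulk sample, fewer endothelial cells and less RNA per endothelial cell cannot be told apart. The results for the 5 genes are therefore given with and without H3, and on 2 scales, as log2(TPM + 1) and as that value minus the mean of the 20 endothelial markers in the same library. A share of the marker level is the plain TPM divided by that level, while the relative log2 difference keeps the pseudocount of 1, which raises low genes in H3.

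Tek and Ptprb were the most abundant of the 5 genes and Angpt1 the least abundant in all 8 libraries. The order of TPM levels was Ptprb, Tek, Tie1, Angpt2, Angpt1 in C1 to C4 and in H4. Tek stood above Ptprb in H1 and H2, and Angpt2 stood above Tie1 in H3. In the controls Ptprb averaged 484 ± 77.2 TPM and Tek 385 ± 99.4 TPM (SD, n = 4), neighbours whose ranges overlapped. Tie1 averaged 137 ± 20.3 TPM, Angpt2 24.4 ± 2.69 TPM and Angpt1 4.33 ± 0.883 TPM (SD, n = 4), and the ranges of these did not overlap with each other or with those above. For comparison, Kdr, the VEGF receptor of endothelium and one of the 20 markers, was at 363 to 587 TPM in the controls, a range that those of Ptprb and Tek overlapped.

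**Figure D1:**
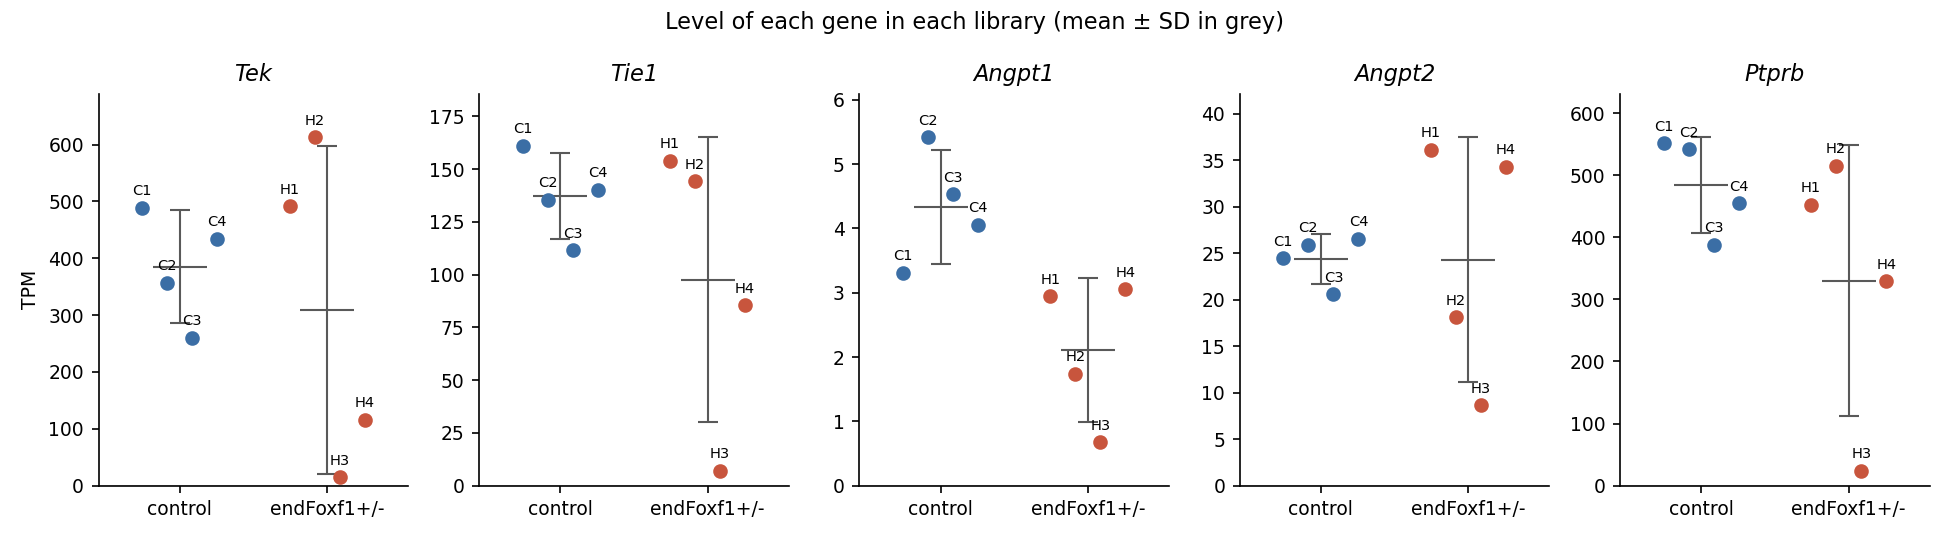
TPM (vertical axis, from 0) of each gene in the control (blue) and endFoxf1+/- (red) libraries, with the group mean ± SD in grey. H3 is the lowest library for all 5 genes, and Angpt1 is the only panel in which the groups do not overlap.

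Tek, the receptor for both ligands, was at 489, 357, 260 and 434 TPM in C1 to C4. It was at 492, 613, 15.01 and 116 TPM in H1 to H4. H1 and H2 lay above all controls and H3 and H4 below all of them. The log2 difference was -1.28 (SE 0.996, 95% interval -3.52 to 0.95, limma adjusted p = 0.797, exact permutation p = 0.429), and without H3 it was -0.19 (adjusted p = 0.952). With H1 and H2 alone against the controls it was 0.55 (adjusted p = 0.416). The direction for Tek therefore turned on H3 and H4.

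Tie1, the orphan co-receptor, was at 161, 136, 112 and 140 TPM in the controls and at 154, 144, 7.15 and 85.5 TPM in H1 to H4. H1 and H2 lay within the control range and H3 and H4 below it. The log2 difference was -1.12 (SE 0.82, 95% interval -2.96 to 0.73, limma adjusted p = 0.790, exact permutation p = 0.343) and without H3 it was -0.13 (95% interval -0.66 to 0.40).

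Ptprb, the phosphatase of TIE2, was at 551, 542, 388 and 455 TPM in the controls and at 452, 516, 24.2 and 330 TPM in H1 to H4. The same pair of libraries lay below the control range. The log2 difference was -1.19 (SE 0.85, 95% interval -3.10 to 0.71, limma adjusted p = 0.790, exact permutation p = 0.200) and without H3 it was -0.17 (95% interval -0.65 to 0.30).

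Relative to endothelial transcripts, Tie1 and Ptprb varied little across the 8 libraries, H3 included, while Tek varied more. Tie1 stood at 32.97%, 28.6%, 27.2% and 27.5% of the marker level in C1 to C4 and at 30.5%, 28.3%, 25.8% and 32.03% in H1 to H4. All 8 values lay within 7.16 percentage points although the marker level itself was 5.89% of the control mean in H3. The relative log2 difference for Tie1 was 0.04 (95% interval -1.23 to 1.31, limma adjusted p = 0.962), and 0.06 without H3 (95% interval -0.26 to 0.38). Ptprb stood at 113%, 115%, 94.7% and 89.3% of the marker level in the controls and at 89.6%, 101%, 87.3% and 124% in H1 to H4, and its relative log2 difference was -0.04 (limma adjusted p = 0.960), or 0.02 without H3 (95% interval -0.37 to 0.41). Without H3, the intervals for both genes exclude a change of 2-fold relative to the markers, which a log2 value of 1 denotes.

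Tek stood at 100.04%, 75.5%, 63.4% and 85.2% of the marker level in the controls, and at 97.5%, 120.3%, 54.2% and 43.6% in H1 to H4. Its share was highest in H2 and lowest in H4, both outside the control range and on opposite sides of it. The relative log2 difference was -0.13 (95% interval -1.47 to 1.22, limma adjusted p = 0.871) and 0.0018 without H3 (95% interval -0.76 to 0.77). The spread of Tek within the endFoxf1+/- group thus exceeded that of Tie1, with an SD of the log2 share of 0.69 against 0.14 over the same 4 libraries.

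**Figure D2:**
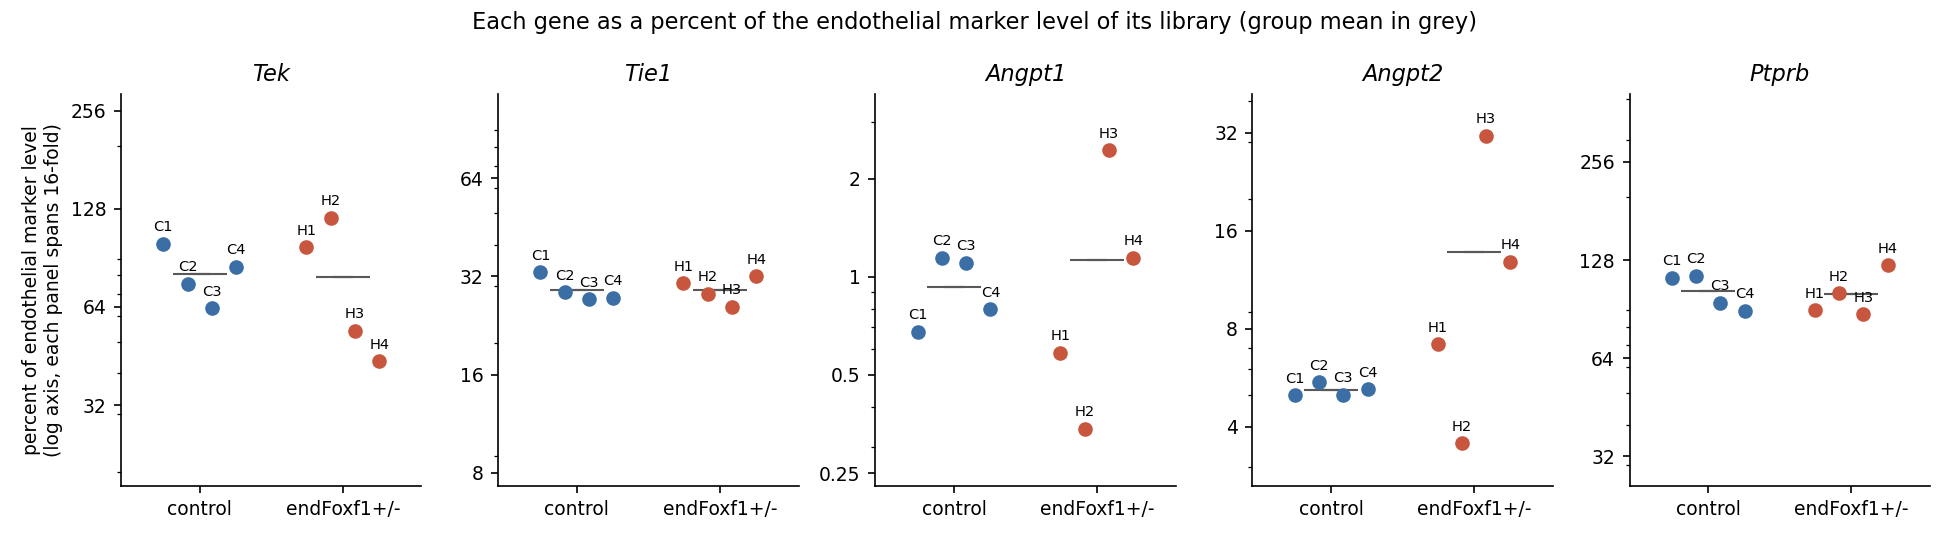
TPM of each gene as a percent of the endothelial marker level of the same library (log axis, every panel spanning the same 16-fold range), with the arithmetic group mean in grey. Tie1 stays between 25.8% and 32.97% in all 8 libraries, whereas Angpt2 runs from 3.56% in H2 to 31.3% in H3.

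**Figure D3:**
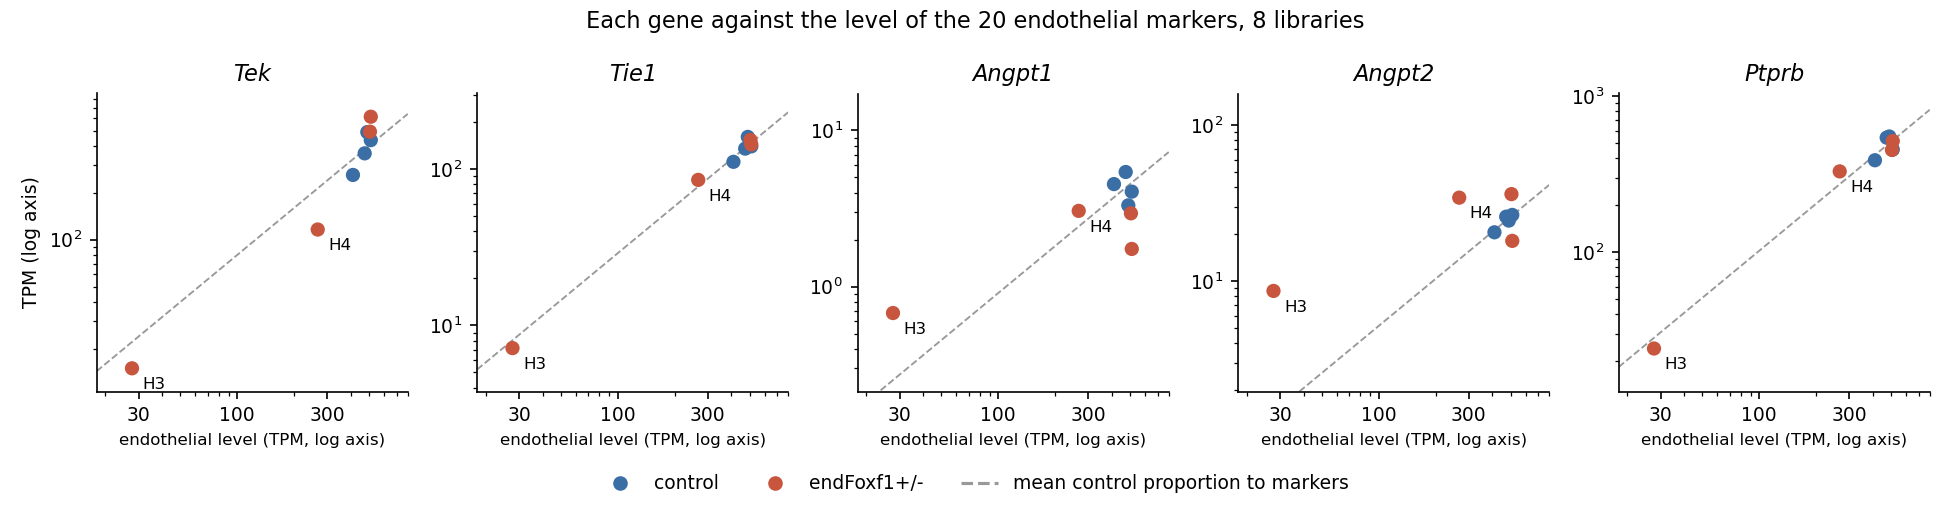
TPM of each gene (log axis) against the endothelial marker level of the library (TPM, log axis), with the mean control proportion as a dashed line. Tie1 and Ptprb follow the line closely down to H3, Tek lies below it in H3 and H4, and Angpt1 and Angpt2 lie above it in both.

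Angpt1, the stabilising ligand, was at 3.31, 5.42, 4.54 and 4.06 TPM in C1 to C4. It was at 2.95, 1.74, 0.678 and 3.06 TPM in H1 to H4. Each endFoxf1+/- library lay below each control library, and the mean was 2.11 ± 1.12 TPM against 4.33 ± 0.883 TPM (SD, n = 4). The log2 difference was -0.85 (SE 0.34, 95% interval -1.61 to -0.09), with an exact two-sided permutation p = 0.0286, the smallest possible here. The limma p was 0.0320 before and 0.790 after adjustment over the 14964 genes tested, so the gene did not pass the threshold of 0.05. The separation depended on the scaling of the libraries. With quantile normalization, with median-ratio scaling and with TPM rescaled without the most abundant transcript, H4 rose above C1 (log2 differences -0.78, -0.74 and -0.84, exact permutation p = 0.0571 each). Without H3 the groups still did not overlap, as held in the lower direction for 2.62% of all tested genes (unadjusted p under 0.05 for 2.35%), and the log2 difference was -0.58 (95% interval -1.15 to -0.01, limma adjusted p = 0.691, exact permutation p = 0.0571, the smallest possible).

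No gene passed the adjusted threshold on this scale (limma, percent called 0, smallest adjusted p 0.305), nor without H3, while 836 had an unadjusted p under 0.05 and 148 passed when limma weighted the libraries by their quality. Angpt1 was 1 of the 5 genes with non-overlapping groups in the lower direction, against 2.31% of all tested genes, and 1 of 5 with an unadjusted p under 0.05 in that direction, against 2.77%. All 5 log2 differences were below 0 with all libraries, as were 10182 of the 14964 tested, and 4 of 5 were without H3, as were 7157 of 14794.

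Markers of both outside sources of Angpt1 had a lower mean log2 level in the endFoxf1+/- group too. The 6 megakaryocyte and platelet markers summed to 749, 1602, 1302 and 1158 TPM in C1 to C4 and to 573, 454, 344 and 846 TPM in H1 to H4. The sum of H4 thus lay above that of C1. All 6 markers were lower with an unadjusted p under 0.05, against 2.77% of all tested genes. None passed adjustment (limma, smallest adjusted p 0.790). The log2 differences were -0.72 for Pf4, -1.46 for Ppbp, -1.63 for Itga2b, -1.66 for Gp9, -1.66 for Treml1 and -1.68 for Gp1bb. Their mean log2 level differed by -1.47 (exact permutation p = 0.0286), and by -1.15 without H3. Relative to the endothelial markers, 1 was above 0 and 5 below, with a median of -0.49 beside 0.98 over all tested genes. None had an unadjusted p under 0.05 there. Without H3, 3 of the 6 had one on that scale, lower, as did 236 of 14794 tested genes. The 11 pericyte and smooth muscle markers summed to 84.7 to 108 TPM in the controls and 39.2 to 72.1 TPM in the endFoxf1+/- libraries, with a difference in mean log2 level of -0.75 (exact permutation p = 0.0286), or -0.55 without H3. Of the 9 tested, 8 had a log2 difference below 0, as did 10182 of all 14964 tested genes, and Acta2 was at 0.15. Rgs5, Higd1b, Cox4i2 and Myh11 had an unadjusted p under 0.05, against 2.77% of all tested genes in the lower direction. Relative to the endothelial markers, 6 were above 0 and 3 below, with a median of 0.56 beside 0.98 over all tested genes. None had an unadjusted p under 0.05 there. Without H3, 2 were above 0 and 7 below on that scale, with a median of -0.31 beside 0.21. Kcnj8 and Abcc9, at 2.53 TPM or less, were not tested and were highest in H4. A gate on CD31 should leave pericytes and smooth muscle cells out of the sort. None of these markers was at 0 in any library, and Pf4 was at 181 TPM or more in all 8. Pf4 was higher in H3 (247 TPM) than in H1 and H2 (196 and 181 TPM), whereas every other platelet marker was lowest in H3. The part of these markers in the Angpt1 result was not tested.

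Angpt1 was also set against these markers, in comparisons added after the data were seen. Minus the mean of the pericyte and smooth muscle markers, its log2 value differed by -0.10 (exact permutation p = 0.629) with overlapping groups, and -0.03 without H3. On that scale the median over all tested genes was 0.58, with 33.2% of genes higher and 0.0668% lower without overlap, so Angpt1 stood below the median gene. Minus the mean of the platelet markers, it differed by 0.62 in the other direction with non-overlapping groups, but on that scale 44.8% of all tested genes were higher without overlap and the median over them was 1.30, above the value of Angpt1. Against the 20 endothelial markers Angpt1 stood at 0.678%, 1.15%, 1.11% and 0.796% in the controls and at 0.584%, 0.342%, 2.45% and 1.15% in H1 to H4. H1 and H2 lay below the control range, H4 at its upper end and H3 above it. The relative log2 difference was 0.31 with all libraries (limma adjusted p = 0.783), 0.00086 with a pseudocount of 0.1 in place of 1, and -0.39 without H3 (adjusted p = 0.685). None of the 5 genes passed the adjusted threshold on the relative scale, where 0.00668% of all tested genes did, and none had non-overlapping groups there, against 8.25% in the higher and 0.0802% in the lower direction.

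The gene whose log2(TPM + 1) was most like that of Angpt1 among all tested genes was Gp9, which encodes a subunit of the platelet receptor for von Willebrand factor. It was named after its values were seen. Gp9 was at 69.7, 180, 131 and 113 TPM in C1 to C4 and at 55.6, 36.4, 12.5 and 66.7 TPM in H1 to H4, and the 8 libraries fell in the same order by Gp9 as by Angpt1. Pearson's r was 0.993 over the 8 libraries and 0.982 over the 7 without H3, a description of libraries that differ together in many transcripts. The other platelet markers ranged from 0.983 for Ppbp to 0.679 for Pf4 over the 8 libraries, and relative to the endothelial markers Gp9 itself had r = 0.835 and ranked 10488 among the tested genes with all libraries, and r = 0.942 and rank 43 without H3.

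Angpt2, the ligand made by endothelial cells, was at 24.5, 25.9, 20.6 and 26.6 TPM in C1 to C4. It was at 36.1, 18.1, 8.67 and 34.3 TPM in H1 to H4. H1 and H4 lay above every control and H2 and H3 below every control, so the means were nearly equal, 24.4 ± 2.69 TPM against 24.3 ± 13.2 TPM (SD, n = 4). The log2 difference was -0.19 (SE 0.41, 95% interval -1.11 to 0.74, limma adjusted p = 0.899, exact permutation p = 0.771), and 0.21 without H3 (95% interval -0.36 to 0.79).

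The shares of Angpt2 and Angpt1 varied most among the endFoxf1+/- libraries, with an SD of the log2 share of 1.33 and 1.23 (n = 4). Angpt2 stood at 5.01%, 5.48%, 5.02% and 5.22% of the marker level in the controls, the tightest control group of the 5 genes (SD of the log2 share 0.06, n = 4). In H1 to H4 it stood at 7.16%, 3.56%, 31.3% and 12.8%, and none of these fell within the control range. The relative log2 difference was 0.97 (95% interval -0.63 to 2.57, limma adjusted p = 0.502) and 0.41 without H3 (95% interval -0.44 to 1.25), with H2 on the other side of the controls from H1, H3 and H4.

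**Figure D4:**
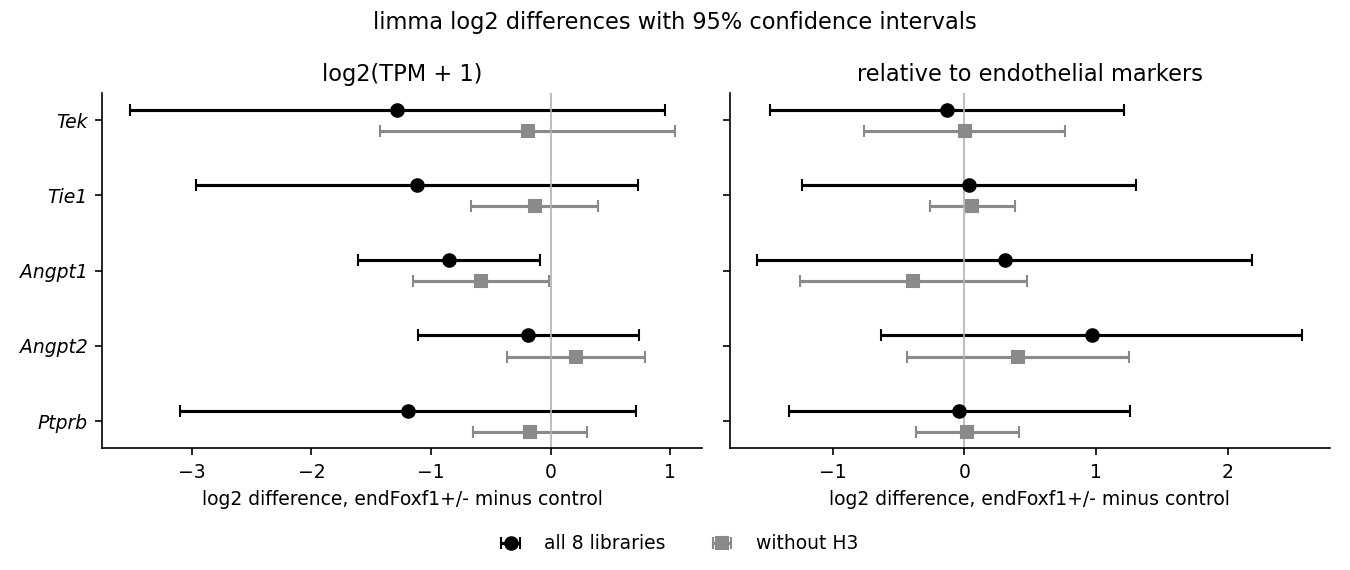
limma log2 differences (endFoxf1+/- minus control) with 95% confidence intervals for the 5 genes on log2(TPM + 1) (left) and relative to the endothelial markers (right), with all 8 libraries (black circles) and without H3 (grey squares). Only the Angpt1 intervals on the left lie below 0, from -1.61 to -0.09 with all libraries and from -1.15 to -0.01 without H3.

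Ratios between the genes were compared for 4 pairs. A ratio of plain TPM within a library does not depend on the scaling of that library. The Angpt2 to Angpt1 ratio of TPM was 7.38, 4.78, 4.54 and 6.55 in C1 to C4. It was 12.3, 10.4, 12.8 and 11.2 in H1 to H4. The groups did not overlap, H3 was the highest of all 8 libraries with H1 next to it, and the means were 5.81 ± 1.38 and 11.7 ± 1.07 (SD, n = 4). On plain TPM the log2 ratio differed by 1.03 (exact permutation p = 0.0286, 0.114 after Benjamini-Hochberg adjustment over the 4 ratios). This scale was added after the data were seen. With a pseudocount of 1 added to each TPM, the scale used for the other results, the difference was 0.66 (exact permutation p = 0.0571, adjusted 0.229) and H3 fell below C1, and with a pseudocount of 5 it was 0.27 (exact permutation p = 0.371). Without H3 the groups did not overlap on either scale (log2 difference 0.99 on plain TPM and 0.79 with the pseudocount, each with an exact permutation p = 0.0571, the smallest possible).

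The ratio carries both the lower Angpt1 values and the scattered Angpt2 values of the endFoxf1+/- libraries. In H2 and H3 both ligands lay below the controls, with Angpt1 further below than Angpt2, and in H1 and H4 Angpt2 lay above them. Angpt1 was at 0.678 to 5.42 TPM, near the filter of 1 TPM. The platelet and pericyte markers given above also had a lower mean log2 level in the endFoxf1+/- group. The pericyte markers did not follow Angpt1 library by library. H4 had the highest Angpt1 of H1 to H4 (3.06 TPM) and the lowest pericyte and smooth muscle sum of all 8 (39.2 TPM). The part of these markers in the ratio was not tested. The ratio is one of transcripts in the whole sorted sample.

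**Figure D5:**
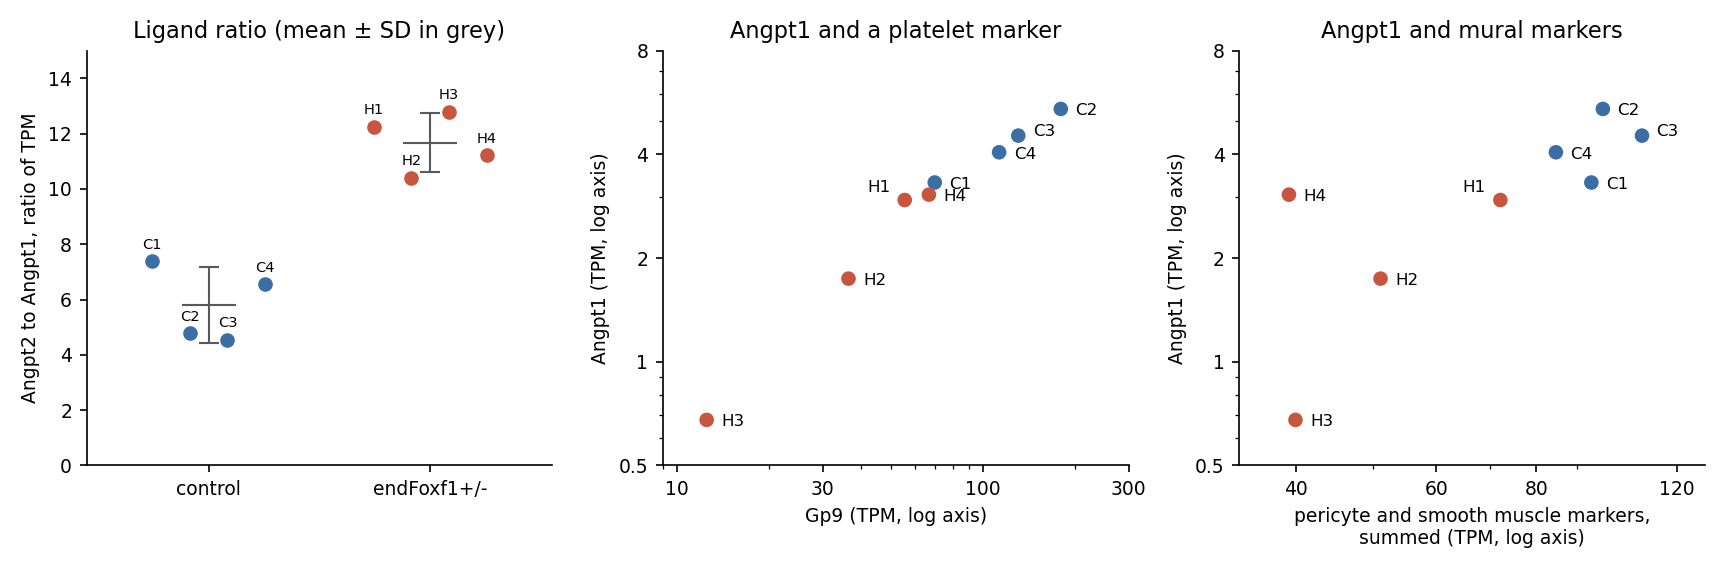
Left, the Angpt2 to Angpt1 ratio of TPM by library with the group mean ± SD, in which controls (blue) lie between 4.54 and 7.38 and endFoxf1+/- libraries (red) between 10.4 and 12.8. Middle and right, Angpt1 TPM against Gp9 TPM and against the summed TPM of the pericyte and smooth muscle markers (log axes), in which the 8 libraries fall in the same order by Gp9 as by Angpt1.

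The other ratios did not separate the groups. Tie1 to Tek was 0.330, 0.379, 0.429 and 0.323 in the controls and 0.313, 0.235, 0.476 and 0.736 in H1 to H4, with H4 highest and H2 lowest of all 8 (log2 difference 0.17, exact permutation p = 0.714, and 0.06 without H3). Ptprb to Tek was 1.05 to 1.52 in the controls and 0.841 in H2 to 2.84 in H4 (log2 difference 0.09, exact permutation p = 0.886, and 0.02 without H3). Angpt2 to Tek was 0.050 to 0.0792 in the controls and 0.0735, 0.0296, 0.577 and 0.295 in H1 to H4, so that H3 and H4 exceeded every control and H2 fell below them (log2 difference 1.10, exact permutation p = 0.343, and 0.41 without H3, exact p = 0.686).

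The neighbouring genes of the pathway were read from 4 lists. Of 8 partners of the TIE receptors, ligands and sheddases, 7 were tested, 4 with a log2 difference above 0 and 3 below, with a median of 0.00 beside -0.17 over all tested genes. Angpt4, the remaining ligand of TIE2, was not tested, at 0.604 TPM or less and listed at 0 in H4. None passed adjustment, and Mmp14 and Itgav had an unadjusted p under 0.05 and non-overlapping groups in the higher direction, against 2.82% and 2.73% of all tested genes. Without H3, 6 of the 7 were above 0 and 1 below, with a median of 0.33 beside 0.01 over all tested genes. An unadjusted p under 0.05 in the higher direction was then found for 3 of them, and for 711 of 14794 tested genes.

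Mmp14, a membrane protease that has TIE2 among its reported substrates, was at 19.2, 16.2, 14.7 and 19.2 TPM in the controls and at 30.7, 28.3, 84.1 and 42.1 TPM in H1 to H4. Every endFoxf1+/- library lay above every control (log2 difference 1.24, SE 0.34, limma adjusted p = 0.790, and 0.91 without H3, adjusted p = 0.407). Itgav, the integrin subunit alpha V, which can bind angiopoietins, was at 18.7 to 23.3 TPM in the controls and 25.3 to 45.6 TPM in the endFoxf1+/- libraries (log2 difference 0.62, limma adjusted p = 0.790, and 0.55 without H3). Both genes are also made by fibroblasts, which the CD31 gate should leave out. Fibroblast markers were higher in the same libraries, 3 of the 6 tested without overlap, against 2.73% of all tested genes. They summed to 107 to 1313 TPM against 34.9 to 93.3 TPM in the controls. The part of fibroblasts in these values was not tested. Relative to the endothelial markers, Svep1, which encodes a ligand of TIE1, and Adam17, a sheddase, also had non-overlapping groups in the higher direction, on a scale where 8.25% of all tested genes did and where the median over all genes was 0.98.

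Of the 15 adaptors and PI3K-AKT genes downstream of TIE2, 7 had a log2 difference above 0 and 8 below, with a median of -0.06. None had an unadjusted p under 0.05 with all libraries. Without H3, 11 were above 0 and 4 below, with a median of 0.20 beside 0.01 over all tested genes. Akt1, the kinase that relays TIE2 signalling, was at 57.6 to 66.5 TPM in the controls and 43.2 to 86.1 TPM in the endFoxf1+/- libraries. Relative to the endothelial markers all 15 were above 0, with a median of 1.09 beside 0.98 over all tested genes. Ptpn11, the phosphatase SHP2, and Rasa1, a RAS GTPase-activating protein, had non-overlapping groups there, with relative log2 differences of 1.35 and 1.20 (limma adjusted p = 0.502 for both), where 8.25% of all tested genes were higher without overlap.

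Of the 12 FOXO genes and FOXO targets, which TIE2 signalling restrains, 3 were above 0 and 9 below, with a median of -0.05. Without H3, 7 were above 0 and 5 below, with a median of 0.16 beside 0.01 over all tested genes. None had an unadjusted p under 0.05 in either fit. Foxo1 was at 17.1 to 23.4 TPM in the controls and at 27.5, 29.6, 2.69 and 25.1 TPM in H1 to H4, so that every endFoxf1+/- library other than H3 lay above the controls. Without H3 its log2 difference was 0.37 (limma adjusted p = 0.693), and relative to the endothelial markers it had non-overlapping groups with all libraries (0.79, limma adjusted p = 0.502). On that scale all 12 genes were above 0 with a median of 1.10, beside 0.98 over all tested genes, so Foxo1 lay below the median gene, and its 1 of 12 without overlap compares with 8.25% of all tested genes.

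Of the 6 VE-PTP substrates and junction neighbours, 1 was above 0 and 5 below, with a median of -1.14, and none had an unadjusted p under 0.05. Cdh5 and Kdr are among the 20 endothelial markers, and the 4 genes that are not had a median of -0.88, and of 0.27 relative to the markers. Without H3, the medians on log2(TPM + 1) were -0.17 for the 6 and -0.06 for the 4, beside 0.01 over all tested genes. Of the 6, 1 then had an unadjusted p under 0.05 in the higher direction, as did 711 of 14794 tested genes. Cdh5, which encodes VE-cadherin, was at 1419 to 1813 TPM in the controls and at 1547, 1558, 94.9 and 1036 TPM in H1 to H4. Among the endothelial markers themselves, Cldn5, the junction protein claudin-5, was the one with an unadjusted p under 0.05 (log2 difference -1.93, limma adjusted p = 0.790, and -1.07 without H3), at 998 to 1409 TPM in the controls and 949, 835, 51.0 and 228 TPM in H1 to H4, lower without overlap on both scales. Emcn, endomucin, had non-overlapping groups in the higher direction on the relative scale (0.58, limma adjusted p = 0.512), below the all-gene median of 0.98 on that scale, and Pdpn, a lymphatic and fibroblast gene, had them on log2(TPM + 1) (0.87, limma adjusted p = 0.790). Of all tested genes, 2.31% were lower and 2.73% higher without overlap on log2(TPM + 1), and 0.0802% lower and 8.25% higher on the relative scale.

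Likeness of pattern was read on the relative scale over the 8 libraries, by Pearson's r and as a description. Nearest to Tek were Cxx1a (0.956), Kank3 (0.949) and Arhgef15 (0.941), and nearest to Tie1 were Acer2 (0.917), Sparcl1 (0.849) and Galnt18 (0.842). Nearest to Ptprb were Ace (0.944), which encodes the angiotensin-converting enzyme of lung endothelium, Itga1 (0.899) and Sox7 (0.842). Nearest to Angpt1 were Stx11 (0.992), Fermt3 (0.992), the kindlin of platelets and leukocytes, and Rela (0.990). Nearest to Angpt2 were Sprtn (0.996), Gm14419 (0.992) and Saa4 (0.992). For Angpt1 and Angpt2 the coefficients share the large subtraction in H3. Without H3 the nearest gene remained Acer2 for Tie1 (0.973) and Sprtn for Angpt2 (0.993), and for Angpt1 the platelet genes Gp6 (0.979) and Ppbp (0.979) came first.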

How the data were processed

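Per the labels and the study's methods, CD45-CD31+ cells were sorted from microdissected tumors and libraries were made with the Nextera XT kit. The authors deposited 1 table per library with a TPM value for each of 33641 gene symbols. The submitters' processing notes name TopHat, Cufflinks, Subread and DESeq2 and the builds GRCm38 and mm10, without roles or versions, and the tool that gave the TPM values is not given in the sources used here. DESeq2, the study's test, needs counts, so it was not run. The depth is unknown, and no counting interval was computed. No library pair of 28 held identical values.

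Groups came from the genotype label. TPM values were tested as log2(TPM + 1) by limma 3.58.1 in R 4.3.3 (empirical Bayes with intensity trend, Benjamini-Hochberg adjustment, threshold 0.05) over the 14964 genes with at least 1 TPM in at least 4 libraries, and again after subtraction of the library's mean over 20 endothelial markers. A fold change on this scale understates the change of low genes. Single values and ratios were compared by exact two-sided permutation tests over 70 assignments (35 without H3). The scripts were tested on simulated data. Named genes were the 5 members, Foxf1, genes of the lists with an unadjusted p under 0.05 or non-overlapping groups on either scale, and the 3 genes most correlated with each member on the relative scale. Kdr, Akt1, Cdh5, Angpt4, Acta2, Kcnj8, Abcc9, Ptprc and Lyz2, as examples of their lists, and the likeness of Gp9, and of Gp6 and Ppbp without H3, to Angpt1 were given outside this rule after their values were seen. The members, lists and tests were chosen with earlier results of these data known. Alternatives covered the pseudocount, the filter, scaling, array weights and left-out libraries. Tools were Python 3.11.15, numpy 2.4.6, pandas 2.3.3 and matplotlib 3.10.9.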

Additional observations from a re-analysis of the deposited data

Results flagged for a closer look

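In groups of 4 libraries, the gap of the highest or lowest library to its neighbour was compared with the whole range of the group, for the endothelial marker mean and for the members' levels, relative levels and ratios, 30 groups in all. Ptprb in H3 was the one value past Dixon's 95% limit, at 4.66 on the log2(TPM + 1) scale against 8.37 to 9.01 in H1, H2 and H4 (gap 0.852 of the range). Chance flags about 1 in 20 groups, and H3 had an endothelial marker level of 5.89% of the control mean.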

How the results depend on the processing

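Among the alternatives given below, no member passed the adjusted threshold. Against the platelet markers, a reference added after seeing the data for Angpt1, Angpt2 did (1.28, adjusted p = 0.0143), as did 10716 of the 14964 genes, with a median of 1.30. The unshifted log2 difference of Angpt1 stayed below 0 in every alternative that gave a value, from -1.18 with a pseudocount of 0.1 to -0.40 with one of 5, and it gave none with a filter of 5 TPM, which removes it. With limma's array weights, under which H3 weighed 0.0643 unshifted and 0.0132 on the relative scale, the log2 difference was 0.39 for Tek, 0.090 for Tie1 and 0.23 for Angpt2, and relative to the endothelial markers 0.49 for Tek, -0.0043 for Tie1, -0.96 for Angpt1 and -0.29 for Angpt2. With H1 and H2 alone it was 0.55 for Tek, 0.13 for Tie1, 0.077 for Angpt2 and 0.010 for Ptprb, relative to the markers 0.44 for Tek, -0.79 for Angpt1 and -0.036 for Angpt2, and for the ratios -0.42 for Tie1 to Tek, -0.54 for Ptprb to Tek and -0.47 for Angpt2 to Tek. With the marker mean as a covariate, the difference was 0.11 for Tek, -0.57 for Angpt1 and 0.0086 for Ptprb. Against Pecam1 alone Tie1 was at -0.074, and against the pericyte markers, added after seeing the data, Angpt1 was at -0.10. The Angpt2 to Angpt1 ratio passed its exact test with a pseudocount of 0.1 (0.97), quantile normalization (0.72) and no pseudocount (1.03, added after seeing the data), but was 0.27 with a pseudocount of 5 (exact permutation p = 0.371). The cause was not tested.

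Leaving out 1 library at a time gave differences of -1.95 to -0.19 for Tek, -1.55 to -0.13 for Tie1, -1.01 to -0.58 for Angpt1, -0.44 to 0.21 for Angpt2 and -1.63 to -0.17 for Ptprb. Relative to the markers they were -0.37 to 0.12 for Tek, -0.00043 to 0.10 for Tie1, -0.39 to 0.76 for Angpt1, 0.41 to 1.46 for Angpt2 and -0.14 to 0.022 for Ptprb, which turned without C1 (0.0087), C2 (0.016), H1 (0.012) or H3. The ratios gave -0.12 to 0.43 for Tie1 to Tek, -0.26 to 0.32 for Ptprb to Tek, 0.41 to 1.83 for Angpt2 to Tek and 0.56 to 0.79 for Angpt2 to Angpt1. The count of genes past the adjusted threshold was 0, with 148 under array weights, 2 with H1 and H2 alone and 0 to 1 with 1 library left out. Relative to the markers it was 1, with 9 at a pseudocount of 5, 16 without a filter, 8 under array weights and 0 to 2 with 1 library left out. No paired analysis was possible because the labels number no replicates, and the numbers used here follow the order of the samples and pair nothing. Depth is unknown, so the precision of Angpt1, at 0.678 TPM in H3, cannot be given.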
